A study of Mus musculus with 37 samples.

Results

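The genes described here encode the receptors and transporters of glutamate, the main excitatory transmitter of the brain, measured in 4 brain regions of mice with altered copy number of the segment that corresponds to human 16p11.2. They were chosen by name: every single-symbol probe set for an ionotropic (Gria, Grik, Grid, Grin) or metabotropic (Grm) glutamate receptor, 3 vesicular transporters (Slc17a6, Slc17a7 and Slc17a8) and 4 uptake transporters (Slc1a1, Slc1a2, Slc1a3 and Slc1a6). This gave 30 of the 19938 genes measured, each read by 1 probe set.

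The mice were 2 df/+, which lack 1 copy of the segment, 3 dp/+, which carry an additional copy, and 3 +/+, and RNA was taken from brain stem, cerebellum, cortex and olfactory bulb. All were males from a first-generation cross of C57BL/6N and 129Sv, and their age is not given in the sources used here. The change is present in every cell from conception, and each sample is a whole dissected region that mixes neurons, glia and vessels. The comparisons ask how the members differ between regions, and whether they follow the copy number of the segment, which holds none of them, although 5 members (Grik5, Slc17a7, Grin2d, Slc17a6 and Grm5) lie elsewhere on chromosome 7.

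Glutamate is loaded into vesicles by the vesicular transporters, acts on ion channels (AMPA, kainate and NMDA receptors) and on slower receptors coupled to G proteins, and is cleared by uptake transporters in glia and neurons. Forebrain and cerebellar neurons that use glutamate mostly load it with Slc17a7, and neurons of the thalamus and brain stem mostly with Slc17a6. The cerebellum is known for its own set of subunits, since its granule cells and Purkinje cells differ from forebrain neurons in the receptors they make.

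The promoters of 4 members are shown because their genes have the regional patterns the results turn on: Slc17a7 and Slc17a6, the vesicular pair whose levels run in opposite directions between cortex and brain stem, and Slc1a6 and Grin2c, both highest in the cerebellum. Each is 300 bases, from 250 before to 50 after the start of the gene in RefSeq (build GRCm38.p6), 5′ to 3′ on the gene's strand, with the letters GGGCGG on either strand in capitals. They lie at chr7:45163671-45163970 on the plus strand (Slc17a7), chr7:51621580-51621879 on the plus strand (Slc17a6, the first of 2 windows listed), chr10:78780246-78780545 on the plus strand (Slc1a6) and chr11:115267194-115267493 on the minus strand (Grin2c).
Slc17a7: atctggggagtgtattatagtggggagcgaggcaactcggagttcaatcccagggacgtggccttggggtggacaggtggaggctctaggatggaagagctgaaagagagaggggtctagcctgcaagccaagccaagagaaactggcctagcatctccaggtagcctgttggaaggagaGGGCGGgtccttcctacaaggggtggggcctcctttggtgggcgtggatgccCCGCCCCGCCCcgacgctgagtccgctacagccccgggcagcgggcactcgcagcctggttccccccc
Slc17a6: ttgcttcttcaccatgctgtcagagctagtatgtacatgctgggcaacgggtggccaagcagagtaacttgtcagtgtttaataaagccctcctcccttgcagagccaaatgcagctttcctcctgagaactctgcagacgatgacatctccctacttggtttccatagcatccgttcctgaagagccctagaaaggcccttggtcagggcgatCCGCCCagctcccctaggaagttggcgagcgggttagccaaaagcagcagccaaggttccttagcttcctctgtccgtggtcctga
Slc1a6: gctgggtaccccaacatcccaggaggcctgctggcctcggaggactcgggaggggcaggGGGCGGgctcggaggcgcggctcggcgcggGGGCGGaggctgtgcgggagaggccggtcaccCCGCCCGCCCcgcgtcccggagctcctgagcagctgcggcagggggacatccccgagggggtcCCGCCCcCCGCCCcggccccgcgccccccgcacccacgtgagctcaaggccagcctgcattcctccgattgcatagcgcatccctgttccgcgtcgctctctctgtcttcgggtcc
Grin2c: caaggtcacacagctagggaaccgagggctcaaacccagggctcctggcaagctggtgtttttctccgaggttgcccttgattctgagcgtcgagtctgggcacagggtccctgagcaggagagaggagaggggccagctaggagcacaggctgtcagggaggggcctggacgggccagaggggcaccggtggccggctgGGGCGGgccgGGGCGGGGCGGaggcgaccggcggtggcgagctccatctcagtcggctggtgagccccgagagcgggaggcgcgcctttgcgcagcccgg

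The GGGCGG motif, the letters of a GC box, occurred 3 times in the Slc17a7 window, 1 time in that of Slc17a6, 6 times in that of Slc1a6 and 3 times in that of Grin2c. GC content was 63.67%, 53.67%, 75.67% and 70% in the same order, against a median of 52.67% over all promoters listed. RefSeq windows were found for 21 of the 30 members, and 13 of these held GGGCGG on either strand, against 35.66% of 32851 promoters. For a member only the first window listed was searched, while the 32851 promoters include every window listed, so these are shares of unlike sets. Of the other motifs searched on both strands, CAGGTG was in 3 members (20.21% of all promoters), CACGTG in 1 (7.15%) and TATAAA in 2 (13.62%). The motifs describe these windows and say nothing of binding.

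There were 31 region samples on 37 arrays: 6 samples have 2 arrays each, which were averaged, and no cortex of dp/+ mouse 3 was analysed here. All levels below are the authors' log2 RMA values, on which 1 unit is a doubling, and they are compared between samples within a gene, not between genes. Between 2 arrays of 1 sample the members had a median SD of 0.08, and between mice of 1 genotype and region a median SD of 0.13. Regions carried their own markers: in +/+ mice 10 of 10 bulb interneuron and 5 of 5 mitral and tufted cell markers were highest in the bulb, 6 of 8 cortical pyramidal neuron markers in the cortex, 9 of 9 granule cell and 6 of 6 Purkinje cell markers in the cerebellum, and 7 of 7 brain stem neuron markers in the brain stem. Of markers of tissue next to these regions, 5 of 5 for thalamus were highest in the brain stem samples, 6 of 6 for striatum in the cortex samples and 4 of 4 for choroid plexus in the cerebellum samples. Some differences of the members between genotypes coincided with changes in such markers, and these are given beside them.

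Expression of nearly every member depended on the region. In +/+ mice 29 of 30 members passed the F test over 4 regions at an adjusted p of 0.05 (limma, Benjamini-Hochberg over all genes), against 58% of all genes, and the exception was Grm6, a receptor best known from the retina (adjusted p = 0.727). The gap between the highest and the lowest region had a median of 1.15 on the log2 scale over the members and of 0.36 over all genes, and it exceeded 1 in 17 of 30 members and in 12.73% of all genes. Whether a lower value reflects fewer cells of a type or less RNA per cell cannot be told apart in such samples.

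The cortex had the highest mean for 12 members (18.0% of all genes), the brain stem for 7 (21.4%), the cerebellum for 6 (32.8%) and the bulb for 5 (27.7%). The lowest mean was in the cerebellum for 15 members (21.2% of all genes), the brain stem for 8 (20.5%), the bulb for 4 (24.1%) and the cortex for 3 (34.2%). A member was called highest alone where all 3 contrasts of that region with the others passed the threshold. This held for 7 members in the cortex (4.96% of all genes), 6 in the cerebellum (9.2%), 3 in the bulb (5.39%) and 2 in the brain stem (4.49%). Lowest alone were 9 members in the cerebellum (7.32% of all genes), 3 in the brain stem (2.12%), 2 in the bulb (6.51%) and 1 in the cortex (2.38%).

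**Figure D1:**
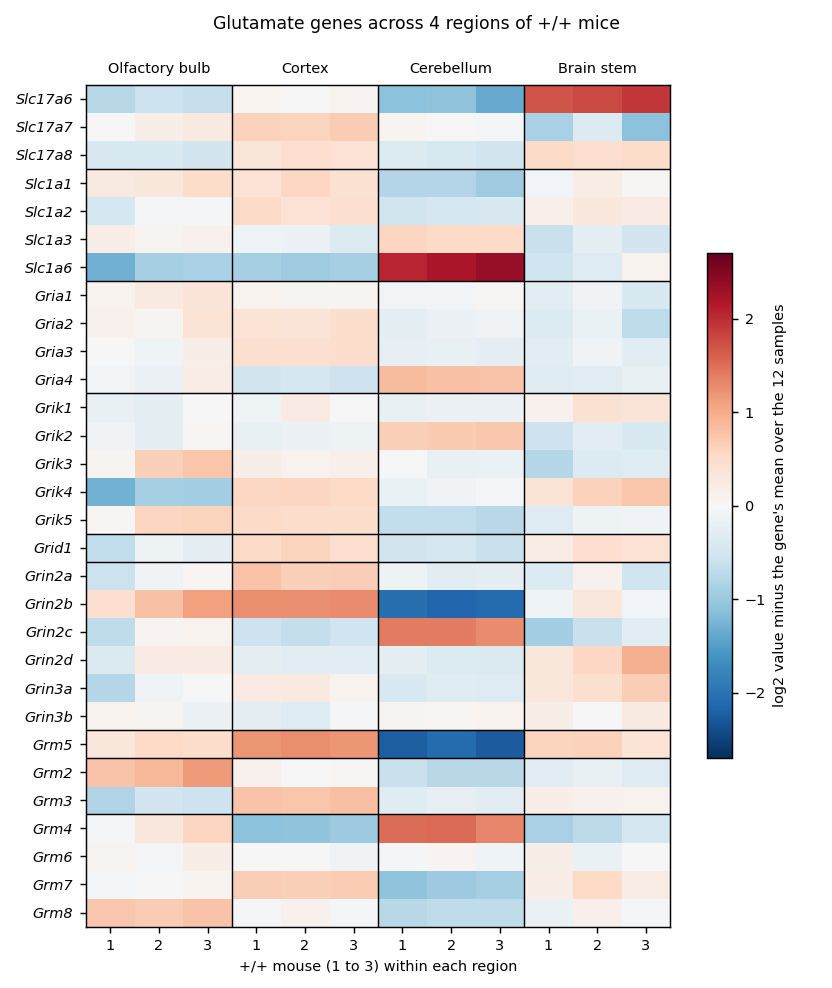
Each row is a member, ordered by role from vesicular transporters at the top to group III metabotropic receptors at the bottom, and each column a region sample of 1 of 3 +/+ mice; colour is the log2 value minus the gene's mean over these 12 samples. Grin2b and Grm5 are far below their means in the cerebellum, Slc1a6, Grm4 and Grin2c are above theirs there, and Slc17a6 is above its mean in the brain stem.

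Between pairs of regions, 133 of 180 contrasts of the members passed the threshold in +/+ mice. The cortex exceeded the cerebellum in 18 members (17.4% of all genes) and lay below it in 7 (19.8%), with 37.2% of all genes called in either direction. It exceeded the brain stem in 14 (13.4%) and lay below it in 5 (13.9%, 27.3% in either direction). The bulb was higher than the cortex in 7 members (16.4%) and lower in 13 (19.3%, 35.7% in all), higher than the cerebellum in 12 (16.3%) and lower in 8 (21.3%, 37.6% in all), and higher than the brain stem in 14 (14.1%) and lower in 11 (18.5%, 32.6% in all). The cerebellum was above the brain stem in 8 members (18.4%) and below it in 16 (18.4%, 36.8% in all).

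The vesicular transporters had 3 separate patterns. Slc17a6, the vesicular transporter of thalamic and brain stem neurons, had 11.57, 11.66 and 11.78 in the brain stem of the 3 +/+ mice, 9.92, 9.87 and 9.95 in the cortex, 9.12, 9.28 and 9.24 in the bulb and 8.77, 8.79 and 8.51 in the cerebellum. No values of different regions overlapped and all 6 pairs of regions differed past the threshold, with the brain stem 2.97 ± 0.10 (SE) above the cerebellum, a 7.86-fold difference. Slc17a7, the transporter of cortical pyramidal and cerebellar granule neurons, ran the other way, with 12.65, 12.62 and 12.71 in the cortex, 12.02, 12.18 and 12.27 in the bulb, 12.10, 12.01 and 11.98 in the cerebellum and 11.15, 11.64 and 10.90 in the brain stem. Its cortex values were above all others and its brain stem values below all others (a difference of 1.43 ± 0.13), while bulb and cerebellum overlapped (adjusted p = 0.535). The brain stem values of Slc17a7 were also the most spread, with an SD of 0.38 between mice, against 0.04 in the cortex. Slc17a8, which marks sparse groups of neurons that often release a second transmitter, averaged 7.12 ± 0.03 in brain stem and 7.02 ± 0.07 in cortex (SD, n = 3 each), not apart past the threshold (adjusted p = 0.441), and 6.20 ± 0.06 in the cerebellum and 6.19 ± 0.04 in the bulb.

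Among the uptake transporters, Slc1a6, the transporter of Purkinje cells, had the widest regional contrast. It had 10.14, 10.29 and 10.45 in the cerebellum, 7.56, 7.73 and 8.19 in brain stem, 7.20, 7.14 and 7.19 in the cortex and 6.79, 7.19 and 7.22 in the bulb of +/+ mice. The cerebellum lay apart from every other sample, 3.23 ± 0.11 (SE) above the bulb, or 9.36-fold, and the brain stem was second, while cortex and bulb overlapped (adjusted p = 0.473). The 2 astrocyte transporters differed in the place of the cerebellum. Slc1a3, abundant in Bergmann glia, was highest alone in the cerebellum (12.75 ± 0.04, against 12.34 ± 0.06 in bulb, 11.99 ± 0.13 in cortex and 11.76 ± 0.18 in brain stem). Slc1a2, the main transporter of forebrain astrocytes, was lowest alone in the cerebellum (12.01 ± 0.06), with 12.93 ± 0.06 in the cortex, 12.70 ± 0.08 in the brain stem and 12.29 ± 0.24 in the bulb. Slc1a1, a neuronal transporter, was also lowest alone in the cerebellum, at 10.01 ± 0.10, against 11.31 ± 0.09 in the cortex, 11.21 ± 0.14 in the bulb and 10.91 ± 0.14 in the brain stem.

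The AMPA receptor subunits, which form the fast excitatory channel, varied less between regions than most members, apart from Gria4. Gria4 was highest alone in the cerebellum, at 12.02 ± 0.04, against 11.20 ± 0.19 in the bulb, 10.94 ± 0.06 in the brain stem and 10.70 ± 0.05 in the cortex (SD, n = 3 each), and brain stem and cortex did not differ past the threshold (adjusted p = 0.0765). Gria1 ran in the order bulb (12.31 ± 0.14), cortex (12.16 ± 0.01), cerebellum (12.05 ± 0.07) and brain stem (11.81 ± 0.16), with no step between neighbours past the threshold and 0.50 ± 0.10 (SE) between the ends. Gria2, whose edited form keeps the channel from passing calcium, had 11.93 ± 0.07 in the cortex, 11.72 ± 0.16 in the bulb, 11.37 ± 0.07 in cerebellum and 11.12 ± 0.25 in brain stem. Gria3 was highest alone in the cortex (11.87 ± 0.02), with 11.43 ± 0.14 in the bulb, 11.20 ± 0.11 in the brain stem and 11.19 ± 0.03 in the cerebellum.

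Of the kainate receptor subunits, Grik4, one of the pair that raises the affinity of the channel, had the widest contrast. It had 9.52, 9.77 and 9.90 in the brain stem, 9.72, 9.74 and 9.70 in the cortex, 8.98, 9.07 and 9.12 in the cerebellum and 7.87, 8.26 and 8.24 in the bulb of +/+ mice. The bulb lay below all other samples, 1.61 ± 0.09 (SE) under the brain stem, whose values enclosed those of the cortex (adjusted p = 0.934). Grik2, a pore-forming subunit, was highest alone in the cerebellum (11.76 ± 0.04, SD) and lowest alone in the brain stem (10.65 ± 0.12), with 10.97 ± 0.14 in the bulb and 10.90 ± 0.03 in the cortex. Grik3, also pore-forming, was highest alone in the bulb (11.18 ± 0.37), followed by cortex (10.82 ± 0.03), cerebellum (10.56 ± 0.10) and brain stem (10.20 ± 0.24). Grik5, the other high-affinity subunit, was lowest alone in the cerebellum (9.89 ± 0.05), against 11.06 ± 0.02 in the cortex, 10.98 ± 0.33 in the bulb and 10.39 ± 0.14 in the brain stem. Grik1 differed least of the family, at 8.63 ± 0.16 in the brain stem, 8.37 ± 0.17 in the cortex, 8.19 ± 0.14 in the bulb and 8.17 ± 0.02 in the cerebellum, with no neighbours apart past the threshold. Grid1, a delta receptor that binds secreted cerebellins, had 10.74 ± 0.08 in the cortex, 10.57 ± 0.13 in the brain stem, 9.86 ± 0.28 in the bulb and 9.69 ± 0.06 in the cerebellum.

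Of the 6 NMDA receptor subunits measured, Grin2a and Grin2b were highest in the cortex, Grin2c in the cerebellum and Grin2d, Grin3a and Grin3b in the brain stem. Grin2b, the subunit typical of forebrain and of early life, had 11.72, 11.73 and 11.76 in the cortex, 10.93, 11.27 and 11.58 in the bulb, 10.35, 10.77 and 10.39 in the brain stem and 8.43, 8.33 and 8.37 in the cerebellum of +/+ mice. All 6 pairs of regions differed past the threshold, with no overlap between regions, and the cortex exceeded the cerebellum by 3.35 ± 0.13 (SE), or 10.2-fold. Grin2c, the subunit of mature cerebellar granule cells, had 10.71, 10.70 and 10.59 in the cerebellum, 8.63, 9.38 and 9.40 in the bulb, 8.74, 8.66 and 8.77 in the cortex and 8.38, 8.72 and 9.02 in the brain stem. The cerebellum lay above all other samples, by 1.96 ± 0.15 over the brain stem, and cortex and brain stem overlapped (adjusted p = 0.954). Grin2a, which joins receptors as the brain matures, was highest alone in the cortex (11.34 ± 0.07, SD), and its means in the bulb (10.44 ± 0.33), cerebellum (10.43 ± 0.08) and brain stem (10.38 ± 0.34) had no neighbours apart past the threshold. Grin2d was highest alone in the brain stem, at 9.04 ± 0.33, against 8.45 ± 0.35 in the bulb, 8.15 ± 0.02 in the cortex and 8.10 ± 0.07 in the cerebellum. Grin3a, which binds glycine, had 10.23 ± 0.18 in the brain stem, 9.94 ± 0.08 in the cortex, 9.47 ± 0.42 in the bulb and 9.39 ± 0.04 in the cerebellum. Grin3b, also a glycine subunit and best known from motor neurons, spanned only 0.34 ± 0.10, from 6.80 ± 0.12 in the brain stem, 6.74 ± 0.03 in the cerebellum and 6.68 ± 0.14 in the bulb down to 6.46 ± 0.15 in the cortex. Its contrast of brain stem with cortex (adjusted p = 0.0156) was lost on leaving out +/+ mouse 1 (adjusted p = 0.0865) or +/+ mouse 2 (0.0843).

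The metabotropic receptors held the widest contrast of all 30 members. Grm5, the group I receptor that signals through Gq and calcium stores, had 11.929, 12.002 and 11.926 in the cortex, 11.35, 11.35 and 11.12 in brain stem, 11.04, 11.29 and 11.21 in the bulb and 8.51, 8.65 and 8.49 in the cerebellum of +/+ mice. The cerebellum lay far below all other samples, 3.40 ± 0.09 (SE) or 10.6-fold under the cortex, while brain stem and bulb overlapped (adjusted p = 0.467).

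The group II receptors, which lower cyclic AMP and restrain release, peaked in different regions. Grm2 had 10.47, 10.61 and 10.86 in the bulb, 9.82, 9.70 and 9.74 in the cortex, 9.40, 9.52 and 9.37 in brain stem and 9.12, 8.97 and 8.97 in the cerebellum, and Grm3, found in neurons and astrocytes, had 11.92, 11.89 and 11.97 in the cortex, 11.33, 11.26 and 11.24 in brain stem, 10.82, 10.94 and 10.86 in the cerebellum and 10.34, 10.64 and 10.58 in the bulb. For both genes all 6 pairs of regions differed past the threshold and no regions overlapped, with the bulb highest and the cerebellum lowest for Grm2 (1.63 ± 0.10) and the cortex highest and the bulb lowest for Grm3 (1.41 ± 0.09).

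Of the group III receptors, most of which sit on nerve terminals, Grm4 was highest alone in the cerebellum. It had 11.81, 11.82 and 11.62 in the cerebellum, 10.27, 10.61 and 10.89 in the bulb, 9.43, 9.59 and 9.83 in the brain stem and 9.20, 9.20 and 9.32 in the cortex, without overlap, and the cerebellum was 2.51 ± 0.12 (SE) or 5.69-fold above the cortex. Grm7 and Grm8 were both lowest alone in the cerebellum. Grm7 had 10.51, 10.49 and 10.53 in the cortex, 10.02, 10.38 and 10.05 in brain stem, 9.82, 9.84 and 9.91 in the bulb and 8.75, 8.85 and 8.93 in the cerebellum, with all 6 pairs past the threshold. Grm8 had 9.59, 9.54 and 9.62 in the bulb, 8.84, 8.97 and 8.82 in the cortex, 8.68, 8.99 and 8.82 in brain stem and 8.12, 8.18 and 8.17 in the cerebellum. Bulb and cerebellum were thus the separate ends for Grm8 (1.43 ± 0.09), with cortex and brain stem overlapping between them (adjusted p = 0.753). Grm6 stayed between 6.47 ± 0.09 in the cerebellum and 6.57 ± 0.10 in the bulb (SD, n = 3 each).

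**Figure D2:**
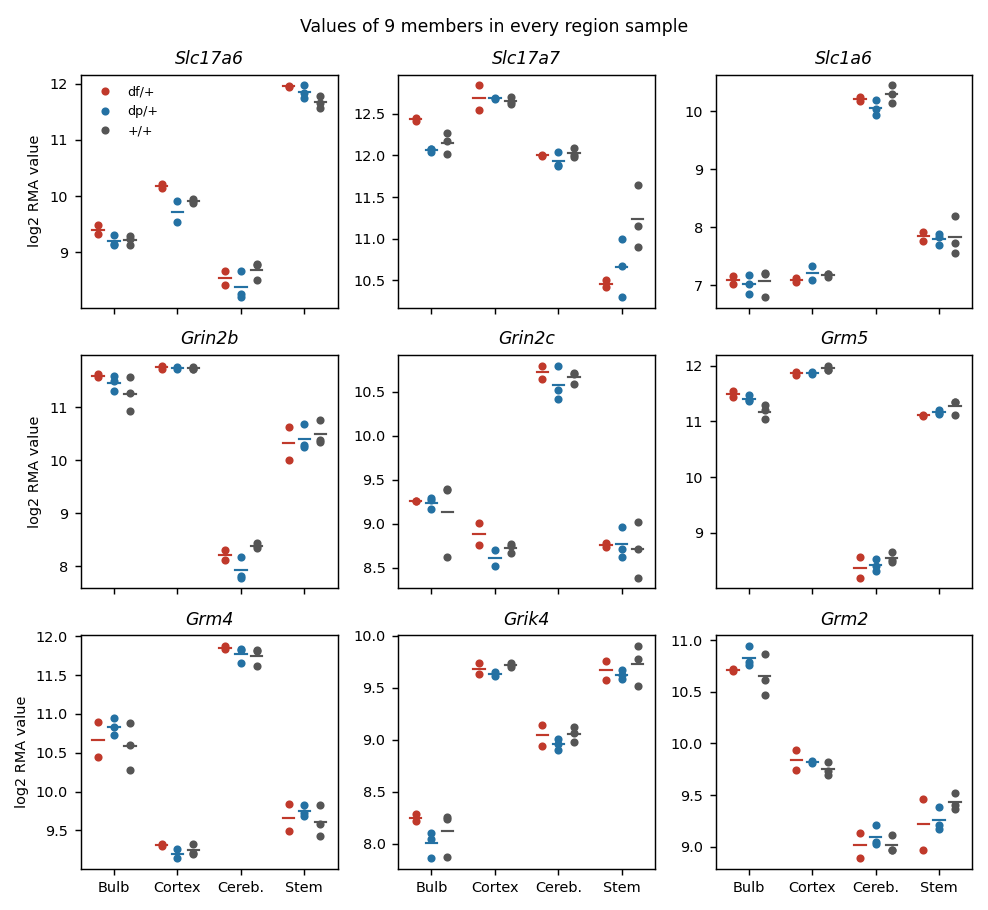
Each point is the log2 RMA value of 1 region sample, with df/+ mice (n = 2) left, dp/+ mice (n = 3, 2 in the cortex) in the middle and +/+ mice (n = 3) right within each region, and lines are group means; the vertical scale differs between panels. For all 9 members shown, the +/+ points of the highest and the lowest region do not overlap, and in the brain stem the df/+ points of Slc17a7 lie below all +/+ points.

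Most regional differences were repeated in the mice that the +/+ comparison did not use. In the 2 df/+ and 3 dp/+ mice together, 29 of 30 members passed the F test, against 70.4% of all genes, with Grm6 again the exception. All 133 pairwise contrasts past the threshold in +/+ mice had the same sign in df/+ and dp/+ mice, and 127 of them passed there too. The share of all genes called in these mice was 39.6% for bulb against cortex, 44.9% for bulb against cerebellum, 50.8% for bulb against brain stem, 47.8% for cortex against cerebellum, 32.3% for cortex against brain stem and 56.9% for cerebellum against brain stem. The highest region was the same for 24 members and the lowest for 27. Neither this agreement nor that of the 133 contrasts was counted over all genes. The cortex exceeded the cerebellum by 3.45 ± 0.07 (SE) for Grm5 and 3.67 ± 0.11 for Grin2b in df/+ and dp/+ mice, and their Slc17a6 values were 11.75 to 11.98 in the brain stem and 8.20 to 8.67 in the cerebellum. For Slc17a7 the cortex was 2.12 ± 0.12 above the brain stem in df/+ and dp/+ mice and 1.43 ± 0.13 in +/+ mice, a gene whose brain stem values are described below.

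**Figure D3:**
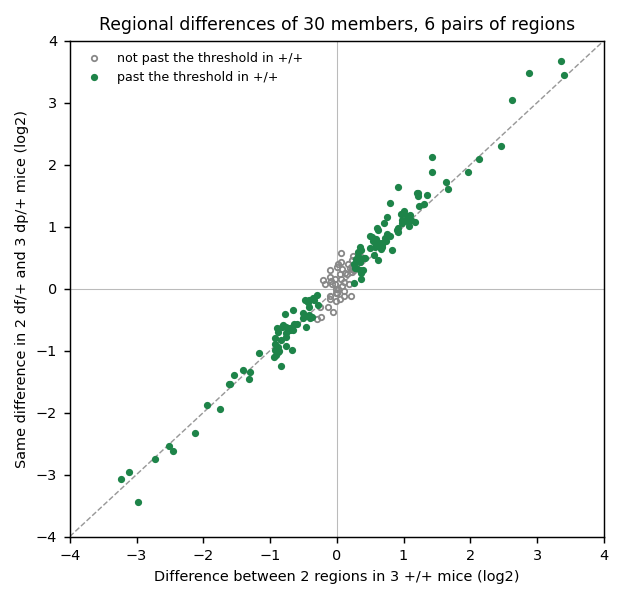
Each point is 1 member in 1 of 6 pairs of regions, with the difference in log2 value in 3 +/+ mice on the horizontal axis and the same difference in 2 df/+ and 3 dp/+ mice on the vertical axis; filled points passed the threshold in +/+ mice and the dashed line marks equality. All 133 filled points lie in the quadrants where both differences have the same sign.

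Partners of these receptors were regional as well. Over all genes 58% passed, with a median gap of 0.36. Of the AMPA receptor auxiliary proteins 15 of 15 passed the F test in +/+ mice, with a median gap of 1.75 between highest and lowest region, and of the kainate and delta receptor partners 9 of 9, with a median gap of 2.54. The postsynaptic scaffold passed with 16 of 17 genes (median gap 1.06), 10 of them highest in the cortex. Group I metabotropic signalling passed with 5 of 6 genes (median gap 1.29) and glutamate synthesis and recycling with 8 of 10 (median gap 0.53).

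Averaged over the regions of each mouse, no member passed a test against the copy number of the segment. None of 30 passed for the slope on log2 copies (0.11% of all genes called), for df/+ against +/+ (0.115%) or for dp/+ against +/+ (1.86%). At an unadjusted p under 0.05 there were 2 members for the slope (6.87% of all genes), 1 for df/+ (6.75%) and 6 for dp/+ (23.7%). The smallest p for the slope belonged to Gria3 (-0.12 ± 0.03 SE, adjusted p = 0.697), Slc17a6 (-0.14 ± 0.04, adjusted p = 0.697) and Slc1a3. With array weights, where 8.11% of all genes passed, Gria3 and Slc17a6 did (adjusted p = 0.0184 and 0.0308). For df/+ against +/+ the members with the smallest p were Gria3 (0.13 ± 0.05, 95% interval 0.01 to 0.25), Slc17a6 (0.15 ± 0.07) and Slc17a7. For dp/+ against +/+ they were Slc17a7 (-0.20 ± 0.06, adjusted p = 0.102), Slc17a8 (0.14 ± 0.05, adjusted p = 0.166) and Grm8 (-0.13 ± 0.05, adjusted p = 0.17), and the first 2 passed with array weights (adjusted p = 0.0385 and 0.0492), as did 11.1% of all genes. The median difference over the members was 0.01 in df/+ and -0.03 in dp/+ mice, and -0.01 in both over all genes.

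Within single regions, none of the 120 slopes of the members passed (brain stem 0.12% of all genes called, cerebellum 0.115%, cortex 0.0953%, bulb 0.246%, with 7 slopes of members and 4.48% of those of all genes at an unadjusted p under 0.05). The smallest p belonged to Gria3 (-0.19 ± 0.07 SE), Grik4 and Grm3 in the bulb, to Slc17a6 (-0.29 ± 0.10), Grin3b and Grik1 in the cortex, to Gria3 (-0.15 ± 0.07), Grik3 and Grm6 in the cerebellum, and to Slc1a3 (0.19 ± 0.06), Gria4 and Gria3 in the brain stem, with adjusted p of 0.555 or more. With array weights the cortex slope of Slc17a6 alone passed (-0.34, adjusted p = 0.0399). Of the 240 contrasts of 1 genotype with +/+ in 1 region, 3 passed (1.25%), near the 1.06% of such contrasts over all genes: Slc17a7 in the brain stem of df/+ mice, and Grm8 and Slc1a1 in the cerebellum of dp/+ mice.

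**Figure D4:**
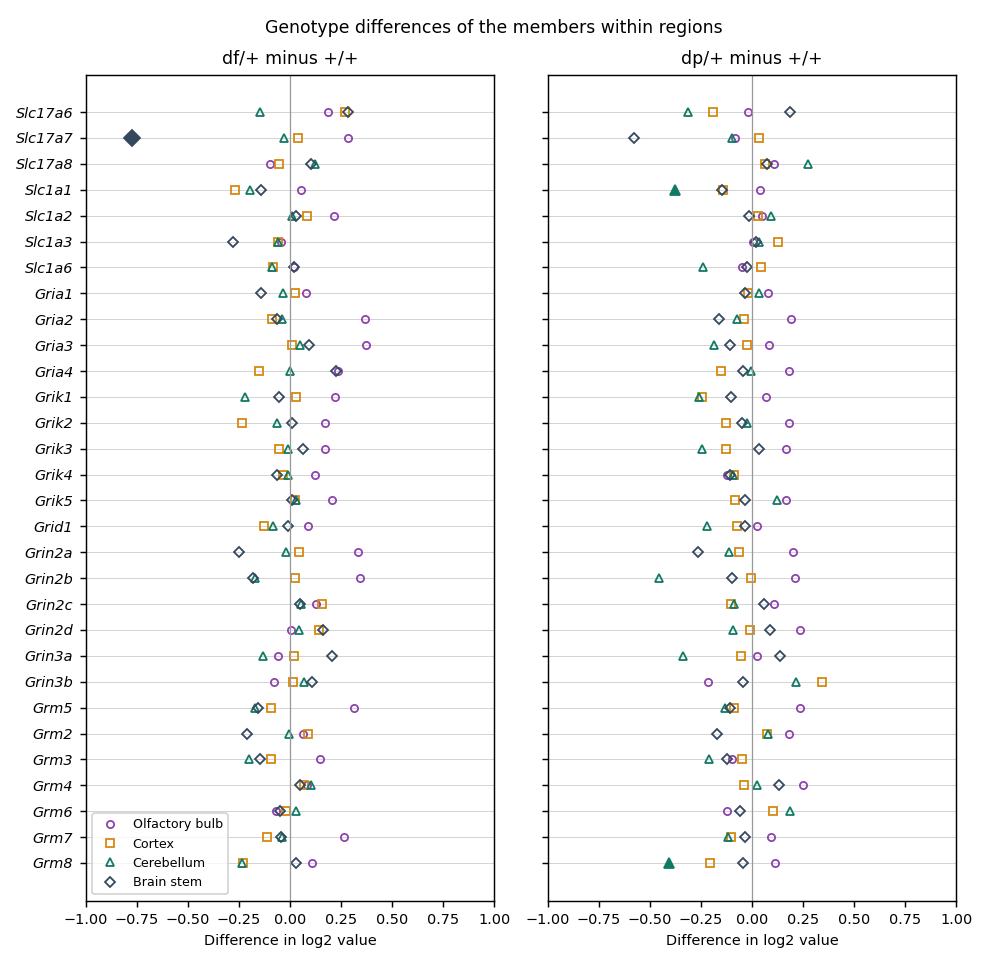
For each member the points give the difference in log2 value from +/+ mice in 4 regions, df/+ minus +/+ on the left and dp/+ minus +/+ on the right, with filled symbols past an adjusted p of 0.05. Filled symbols mark Slc17a7 in the brain stem (df/+), Slc1a1 and Grm8 in the cerebellum (dp/+), and bulb symbols of df/+ mice lie mostly right of 0.

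Slc17a7 was lower in the brain stem of mice with the deletion. It had 10.50 and 10.41 in df/+ mice, 11.00, 10.29 and 10.67 in dp/+ mice and 11.15, 11.64 and 10.90 in +/+ mice. The df/+ values lay below all +/+ values and within the range of the dp/+ values, of which 1 lay above the lowest +/+ value. The df/+ mean was lower by 0.77, or 58.5% of the +/+ level (-0.77 ± 0.16 SE, adjusted p = 0.0214, 0.211% of all genes called, all of them lower), and was the only member called there, while the dp/+ mean differed by -0.58 ± 0.14 (adjusted p = 0.301, 0.015% called). Deletion and duplication thus lay on the same side of +/+, both set against the same 3 mice. The df/+ call was lost without df/+ mouse 1 (adjusted p = 0.138), df/+ mouse 2 (0.616), +/+ mouse 1 (0.0919) or +/+ mouse 2 (-0.57, 0.356), with array weights (-0.57, 0.174) and with the brain stem fitted alone (0.747). Without +/+ mouse 3 the dp/+ contrast passed (-0.74, adjusted p = 0.0314). The next smallest p in dp/+ brain stems belonged to Grin2a (-0.26 ± 0.15) and Slc17a6 (0.18 ± 0.11).

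Genes of cortical pyramidal neurons differed in the same samples. Tbr1, a transcription factor of deep cortical layers, had 5.79 and 5.83 in the brain stem of df/+ mice, 7.13, 6.19 and 6.15 in dp/+ mice and 8.49, 9.08 and 6.45 in +/+ mice. Neurod6 had 5.44 and 5.81 in df/+ mice, 7.12, 5.54 and 6.20 in dp/+ mice and 7.59, 8.50 and 5.99 in +/+ mice. Of the 8 markers, Tbr1, Neurod6 and Fezf2 shared the order of Slc17a7, in which +/+ mouse 2 was the highest of the 8 brain stem samples, +/+ mouse 1 the second and dp/+ mouse 1 the highest of the dp/+ mice. Neurod2 was highest in +/+ mouse 2 and second in dp/+ mouse 1, while Cux2, Rorb, Rasgrf2 and Lamp5 were each highest in a df/+ mouse. Of 8 pyramidal neuron markers 2 fell in df/+ mice, Tbr1 (-2.20 ± 0.38, adjusted p = 0.00506) and Fezf2 (-1.06 ± 0.20, adjusted p = 0.0101). Of these 8 markers 5 had a negative difference. The tests of markers given here pool the spread between mice over all regions. Their SE and adjusted p therefore do not measure the spread within the brain stem alone. In +/+ brain stems Tbr1 ran from 6.45 to 9.08 and Fezf2 from 7.24 to 8.48. For these markers no fit of the brain stem alone is given. The mean level over the list was 8.38 to 8.46 in df/+, 8.39 to 8.81 in dp/+ and 8.54 to 9.47 in +/+ mice. Of the other lists, choroid plexus markers differed by a median of -1.05 and thalamus markers by -0.60 with none past the threshold, Dlx1 of the bulb interneuron list fell (-1.16 ± 0.21, adjusted p = 0.00981), and 0 of 7 brain stem neuron markers passed (median 0.05). The mean level of the thalamus list was 8.44 and 9.46 in the 2 df/+ brain stems, against 9.39 to 9.49 in +/+ ones. That of the granule cell list was 8.24 to 8.39 in df/+, 8.11 to 9.42 in dp/+ and 8.15 to 8.47 in +/+ brain stems. The part of these markers in the Slc17a7 result was not tested.

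**Figure D5:**
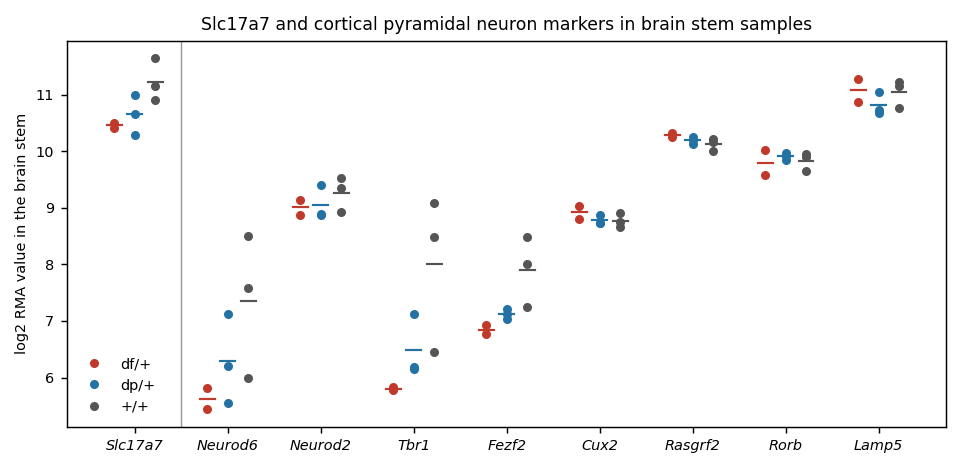
Points are log2 RMA values of brain stem samples from df/+ (n = 2, left), dp/+ (n = 3, middle) and +/+ mice (n = 3, right) for Slc17a7 and, right of the line, 8 markers of cortical pyramidal neurons, with lines at group means. Slc17a7, Neurod6, Tbr1 and Fezf2 have their 2 highest values in the same 2 +/+ mice, while Cux2, Rasgrf2 and Rorb differ little between groups.

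In the cerebellum of dp/+ mice, 2 members were lower than in +/+ mice, where 5.54% of all genes were called, 3.26% lower and 2.29% higher. Grm8, a presynaptic group III receptor, had 7.69, 7.91 and 7.65 in dp/+ mice and 8.12, 8.18 and 8.17 in +/+ mice, a difference of -0.41 ± 0.09 (SE, adjusted p = 0.0194), and 7.97 and 7.88 in df/+ mice (-0.23 ± 0.10, adjusted p = 0.523, 0.0702% of all genes called). Both altered genotypes lay below all +/+ values for this gene. Slc1a1, the neuronal uptake transporter, had 9.58, 9.83 and 9.47 in dp/+ mice and 10.06, 10.07 and 9.89 in +/+ mice, a difference of -0.38 ± 0.11 (adjusted p = 0.0411), again without overlap. Grin2b had 7.82, 8.17 and 7.78 in dp/+ mice and 8.43, 8.33 and 8.37 in +/+ mice and did not pass (-0.46 ± 0.15, adjusted p = 0.0626). All 3 genes have their lowest +/+ mean in this region.

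Grm8 was no longer called without dp/+ mouse 1 (adjusted p = 0.129), +/+ mouse 2 (0.095) or +/+ mouse 3 (0.057). Slc1a1 was lost when any single mouse but dp/+ mouse 2 was left out (adjusted p = 0.0541 to 0.187), with the region fitted alone (0.0551), and when arrays were normalised again by quantiles over all arrays (0.133), quantiles within regions (0.141) or cyclic loess (0.0965). The arrays themselves differed there: the lower quartile of all 35556 probe sets ran from 5.94 to 6.09 on the dp/+ cerebellum arrays, against 5.83 to 5.91 on the +/+ ones, and the upper quartile from 9.09 to 9.21, against 9.27 to 9.31. The part of this difference in array spread in the results was not tested beyond these normalisations. Of 30 members 10 had all dp/+ values below all +/+ values (20.3% of all genes) and 3 above (16.1%). Granule cell and Purkinje cell markers had 0 of 9 and 0 of 6 genes past the threshold in this comparison. Of 5 hippocampus markers 1 fell, Tdo2 (-0.71 ± 0.15, adjusted p = 0.0163), and the mean level of that list was 8.76 to 8.85 in dp/+ and 8.95 to 9.07 in +/+ cerebella. In +/+ mice Tdo2 was itself highest in the cerebellum, with a mean of 7.78, against 5.54 in the cortex, 5.31 in the brain stem and 4.89 in the bulb. Choroid plexus markers had 0 of 4 past the threshold, with a mean level of 9.73 to 11.07 in dp/+ and 10.99 to 11.24 in +/+ cerebella. The part of these lists in the Grm8 and Slc1a1 results was not tested.

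In the olfactory bulb most members had positive differences in both altered genotypes, which share the 3 +/+ mice. In df/+ bulbs none passed (0.291% of all genes called), and 6 were at an unadjusted p under 0.05 (10.7% of all genes). Of 30 members 25 had a positive difference in df/+ bulbs, with a median of 0.14, against 45.7% of all genes and a median of -0.02. In dp/+ bulbs 23 of 30 did, with a median of 0.09, against 51.3% of all genes and a median of 0.0049. The bulb of +/+ mouse 1 was the lowest of the 3 +/+ bulbs for Grin2c (8.63, highest 9.40), Grin2b (10.93, highest 11.58) and Grm4 (10.27, highest 10.89). Among the other members with bulb values by sample, it was also lowest for Slc17a6, Slc17a7, Slc1a6, Grik4, Grm2, Grm3, Grm5 and Grm7. It was not the lowest for Gria2, Gria3 or Grm8. The part of this sample in the counts of positive differences was not tested. For df/+, in 8 members both values lay above all +/+ values (10.5% of all genes) and in 0 below (14.6%). Gria3 had 11.81 and 11.80 in df/+ mice, 11.49, 11.62 and 11.42 in dp/+ mice and 11.40, 11.30 and 11.59 in +/+ mice (df/+ minus +/+ 0.37 ± 0.10 SE, adjusted p = 0.092). It passed with array weights (adjusted p = 0.016), with quantiles within regions (0.0479) and without +/+ mouse 3 (0.0289). Grm5 had 11.44 and 11.54 in df/+ mice and 11.04, 11.29 and 11.21 in +/+ mice (0.31 ± 0.10, adjusted p = 0.204), and Gria2 had 12.09 and 12.08 in df/+ mice and 11.65, 11.61 and 11.90 in +/+ mice (0.37 ± 0.12, adjusted p = 0.235, or 0.0437 without +/+ mouse 3). For these 3 genes the df/+ samples were above all +/+ samples.

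Markers of olfactory sensory neurons, whose axons enter the bulb, were lower in the same df/+ samples. Their mean level was 9.06 to 9.40 in df/+, 9.19 to 9.38 in dp/+ and 9.57 to 9.90 in +/+ bulbs. In df/+ bulbs 1 of 5 fell past the threshold, Gng13 (-0.87 ± 0.19, adjusted p = 0.0456), and in dp/+ bulbs 1 of 5 fell as well. Gng13 is not confined to the bulb, with +/+ means of 10.66 in the cerebellum and 10.27 in the bulb. Mitral and tufted cell and bulb interneuron markers had 0 of 5 and 0 of 10 past the threshold in df/+ bulbs. The part of the sensory axons in the members' values was not tested. In dp/+ bulbs no member passed (2.27% of all genes called), and the smallest p belonged to Grm5 (0.23 ± 0.09, adjusted p = 0.156), Grin3b (-0.21 ± 0.10, adjusted p = 0.275) and Gria4.

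In the cortex no member passed in df/+ mice (0.1% of all genes called) or in dp/+ mice (0%). At an unadjusted p under 0.05 there were 4 members in df/+ (6.01% of all genes) and 3 in dp/+ cortex (15.8%). The smallest p in df/+ cortex belonged to Grik2 (-0.24 ± 0.10), Grm8 (-0.23 ± 0.10) and Slc1a1 (-0.27 ± 0.12), with adjusted p of 0.748 to 0.794, and in dp/+ cortex to Grin3b (0.34 ± 0.12, adjusted p = 0.175), Grik1 and Grm8. With array weights Grin3b passed in dp/+ cortex (adjusted p = 0.0152). In the cerebellum of df/+ mice the smallest p belonged to Grm8, Grm3 (-0.20 ± 0.10, adjusted p = 0.558) and Grik1.

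Tests of whether a genotype acted differently in different regions called no member. The 4 slopes differed for 0 of 30 members (0.0502% of all genes called), the 4 df/+ contrasts for 0 (0.0602%) and the 4 dp/+ contrasts for 0 (0.211%). At an unadjusted p under 0.05 these were 0 (1.91% of all genes), 7 (8.62%) and 6 members (14.9%). Slc17a7 had the smallest p for df/+, with a gap of 1.06 between the bulb, where it was 0.28 higher, and the brain stem (adjusted p = 0.0917), followed by Grm5 and Gria4, and Grm8 for dp/+ (adjusted p = 0.127), followed by Grin3b and Grm5. For the slopes the smallest p belonged to Grin3b, Grm3 and Gria4. A call for these genes in 1 region therefore does not show that the other regions differ from it.

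Few partner genes were called with the members. In the cerebellum of dp/+ mice 2 of 9 kainate and delta receptor partners rose, where 2.29% of all genes were called higher and 5.54% in either direction. They were Cbln2 (0.37 ± 0.10 SE, adjusted p = 0.0366), a secreted ligand of delta receptors, and C1ql2 (0.33 ± 0.10, adjusted p = 0.0419), a secreted protein that binds kainate receptors. In that comparison 0 of 15 AMPA receptor auxiliary proteins, 0 of 17 scaffold genes, 0 of 10 synthesis and recycling genes and 0 of 6 group I signalling genes passed, with Homer3 (-0.31 ± 0.10, adjusted p = 0.0543) and Neto1 (-0.39 ± 0.13, adjusted p = 0.0646) nearest. In dp/+ bulbs, where 2.27% of all genes were called, C1ql3, also of the kainate and delta partners, fell (-0.90 ± 0.21, adjusted p = 0.0237). Dlg2 of the scaffold rose there (0.36 ± 0.09, adjusted p = 0.0359). The bulb slope of C1ql3 passed too (-0.95 ± 0.15, adjusted p = 0.000498, 0.246% of all genes called). In the brain stem and in the bulb of df/+ mice none of the 5 partner lists had a gene past the threshold. The scaffold had 14 of 17 positive differences in df/+ and 14 of 17 in dp/+ bulbs, where 45.7% and 51.3% of all genes had one. The smallest p in df/+ bulbs belonged to Dlg2 (0.30 ± 0.10, adjusted p = 0.245) and Homer2 (0.53 ± 0.19, adjusted p = 0.277).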

How the data were processed

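RNA of each region sample was hybridised to an Affymetrix mouse array. The authors deposited 1 log2 value per probe set and array, made with Affymetrix Expression Console and RMA per the submitters' processing notes; versions are not given in the sources used here, and the log base was read from the values. RMA shares information across arrays and compresses differences of dim probe sets. The table holds 35556 probe sets, of which 21789 have 1 listed gene symbol, 1621 several and 12146 none. Gene symbols are those of GEO's platform annotation, and RefSeq listed 21698 of the 21789; those of the members did not change. For each of 19938 genes the probe set with the highest mean was kept, and 2 arrays of 1 sample were averaged.

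Models were fitted with limma 3.58.1 in R 4.3.3 and adjusted by Benjamini-Hochberg over all genes at 0.05. Regions were compared with the mouse, given by the labels, as a fixed block. Within regions the slope on log2 copies and both genotype contrasts came from 1 fit over the 31 region samples, in which the mouse entered as a random block (consensus correlation 0.15 and 0.12). Brain-wide tests used 1 value per mouse, the mean over its regions of the log2 value minus the +/+ mean of that region, with dp/+ mouse 3 entering through its 3 regions. The fits were tested on simulated data. The p-values of the genotype tests measure the spread between mice, which the tests within regions pool over the 4 regions. Those of the regional tests measure how far the regional differences vary from mouse to mouse. The number of mice, not counting depth, limits the precision.

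The members and lists were chosen with earlier results of these data known. Every member is given with its regional levels; those called for genotype or among the 12 widest contrasts are given by sample, and otherwise the 3 smallest p. In the genotype comparisons Gria2, Gria3, Grm5 and Grin2b are given by sample beyond this rule, chosen after their values were seen.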

Additional observations from a re-analysis of the deposited data

How the results depend on the processing

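The 72 results of single members and the counts behind them were recomputed under 16 other settings and without each of 8 mice; 1165 of 1198 member values kept their direction and side of the threshold and none reversed. Array weights moved counts: 2 members for the brain-wide slope and 2 for dp/+ against +/+ across the brain (0 reported), 1 for slopes within regions (0 reported) and 8 for genotype contrasts within regions (3 reported). The share of all genes called moved too, to 8.11%, 11.1%, 0.265% and 4.56% in the same order, against 6.67%, 6.67%, 0.833% and 3.33% of the members. These weights are themselves estimated, from 31 samples for the tests within regions and from 8 mice with 1 value each for the brain-wide tests. The cause was not tested. Leaving out 1 mouse gave 28 to 28 members with a regional difference in +/+ mice, 119 to 124 pairwise contrasts, 28 to 29 members in df/+ and dp/+ mice, 0 to 0 for the brain-wide tests, slopes within regions and slopes that differ between regions, and 0 to 5 genotype contrasts within regions: 0 when +/+ mouse 2 was left out, 1 when either df/+ mouse, dp/+ mouse 1 or +/+ mouse 1 was, and 5 when dp/+ mouse 2 was.

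Mice of the same number in different genotypes were not treated as pairs: their deviations correlated at -0.38 to 0.17, and 2 of 7 pairs exceeded 0.1. The 2 df/+ mice deviate from their mean by equal and opposite amounts. These correlations therefore cannot show whether mice of different genotypes shared a litter or batch. With that number as a replicate block the counts were 0 for each brain-wide test and for both slope tests, and 3 for contrasts within regions. Without the mouse as a replicate block 29 members differed between regions in +/+ mice, 125 pairwise contrasts passed and 29 members differed in df/+ and dp/+ mice. The test of whether a genotype contrast differs between regions was added after the data were seen. With 2 df/+ mice and whole regions, changes in single cell types, splice forms and proteins were not measured.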
